A study of Homo sapiens with 24 samples.

Results

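The 10 genes described here are known YAP and TAZ targets that are less studied than CTGF, CYR61 or ANKRD1: MYOF, AXL, F3, CRIM1, FJX1, FOXF2, CCDC80, NT5E, DOCK5 and NUAK2. They were found by their symbols, and each had 1 entry, with status OK, in all 24 gene tables, so that 10 of the 58266 symbols are described. Of these 10, 8 were tested, having 3 or more libraries with a level of 1 FPKM or higher, while AXL and NT5E stayed below that filter. FPKM is the number of fragments scaled to transcript length and library size, a level per length that can be compared between genes. The data are mRNA profiles of HEK293A, an adherent line from human embryonic kidney, grown in medium with 10% FBS on fibronectin-coated hydrogels of 1 kPa (soft) or 40 kPa (stiff). The 8 groups of 3 libraries cross these gels with 4 genotypes: wild type (WT), RAP2A/B/C-tKO (RAP2 tKO), LATS1/2-dKO (LATS dKO) and YAP/TAZ-dKO (YAP/TAZ dKO). The sources used here do not say by which method cells were edited or whether a genotype is 1 clone, and a clone's own features cannot be told apart from its genotype. Replicates are biological per the series design text.

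LATS1 and LATS2, kinases of the Hippo pathway, phosphorylate YAP and its relative TAZ (gene WWTR1), which keeps them out of the nucleus. Unphosphorylated YAP and TAZ bind DNA through the TEAD factors, often beside AP-1, and switch on target genes. Cells on a stiff matrix hold more nuclear YAP than cells on a soft one, and RAP2 GTPases are known to pass the soft-matrix signal on to LATS. A gene that follows the pathway would be higher in LATS dKO and RAP2 tKO cells, lower in YAP/TAZ dKO cells, and higher on the stiff gel in WT. Each of these 4 comparisons was counted apart.

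By the width of the deposited intervals, libraries held an estimated 18.3 to 40.0 M fragments (median 30.9 M). The error of this estimate was not measured. A library's departure from its group mean followed gene GC content most in replicate 3 of RAP2 tKO on 40 kPa (rank correlation -0.597) and in replicate 1 of LATS dKO on that gel (-0.567), called the GC-deviating libraries here. In the remaining libraries of both these groups this correlation was of the opposite sign, from 0.383 to 0.536. In the 18 libraries of the other 6 groups it was at most 0.334 in size. YAP1 fell in YAP/TAZ dKO (log2 change -2.18, limma adjusted p = 1.37e-16) and so did WWTR1 (-1.29, limma adjusted p = 7.04e-11), and LATS1 fell in LATS dKO (-1.08, limma adjusted p = 2.05e-11). LATS2 was not called in LATS dKO (0.32, limma adjusted p = 0.091). In RAP2 tKO RAP2A fell (-0.31, limma adjusted p = 0.00397), RAP2B rose (0.26, limma adjusted p = 0.00084) and RAP2C was not called (0.17, limma adjusted p = 0.238), so that RNA levels alone do not show the loss of LATS2, RAP2B or RAP2C, and these lines go by their labels. The markers VIM, KRT8, KRT18, NEFL, PAX2 and LHX1 of this line were detected, while NEFM stayed below 1 FPKM everywhere. PAX2 was low and differed between lines, its group means running from 0.119 FPKM (LATS dKO on 40 kPa) to 1.02 (YAP/TAZ dKO on 40 kPa). LHX1 ran from 0.487 to 6.63 FPKM between the same 2 groups. Of 7 fibroblast markers 4 were below 1 FPKM in every library, with DCN at 0, but their summed level was 22.6 to 26.9 FPKM in LATS dKO against 5.08 to 8.16 in the other libraries, where COL3A1 (10.2 FPKM on 1 kPa, 0.146 in WT) and LUM (8.17 and 0.668) were higher. The part of such a state of the LATS dKO line in its results below was not tested. The 5 immune markers summed to 2.91 to 8.05 FPKM, with PTPRC, CD3E and LYZ below 1 everywhere, and the 4 endothelial markers measured to between 0.0487 and 0.816.

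Of the 18 calls made for these genes over all contrasts, 1 was for stiffness and the others were between genotypes. MYOF, CRIM1 and FJX1 were called in the direction of the pathway in all 3 genotype contrasts, as were 1.47% of all genes tested. Only MYOF kept all 3 calls under every alternative run, while CRIM1 and FJX1 did not. CCDC80 and NUAK2 were called in the direction of the pathway in 2 of the 3 contrasts, and F3 and DOCK5 in 1. The share of all genes so called in 2 or in 1 was not counted. For a single contrast it ran from 7.40% to 27.0%. FOXF2 went the opposite way, and none of the 8 tested was called for stiffness in WT. In LATS dKO against WT 5 of the 8 rose (16.0% of all 15828 genes tested did) and 1 fell (17.8% of all). In YAP/TAZ dKO 5 fell, where 27.0% of all genes did, and 1 rose, where 23.6% did. In RAP2 tKO 5 rose against 7.40% of all genes and 0 fell against 8.57% (0 also at an unadjusted p under 0.05, limma). The median log2 change of the 8 was 0.427 in LATS dKO, -0.44 in YAP/TAZ dKO and 0.233 in RAP2 tKO, while the median over all genes tested lay between -0.0131 and 0.00097 in these contrasts. All 3 contrasts share the 6 WT libraries, and NUAK2 passed the filter only through LATS dKO, where it is high. A bulk level does not tell whether fewer cells express a gene or each cell holds less of its RNA.

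**Figure D1:**
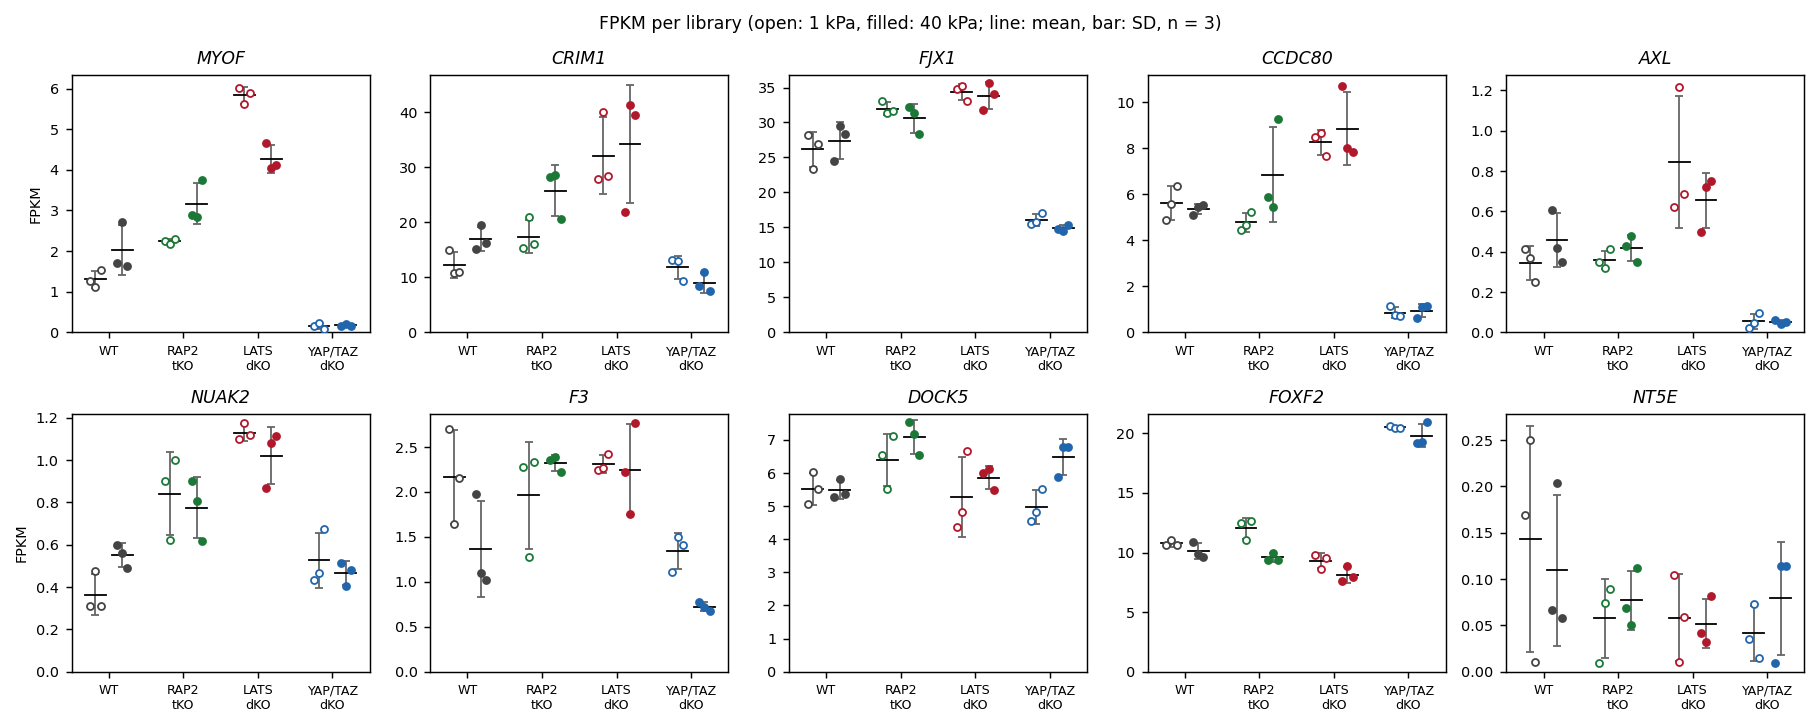
FPKM of the 10 genes in each library (vertical axis, from 0) by genotype, with open points for 1 kPa and filled points for 40 kPa, a line at the mean and a bar of 1 SD (n = 3). MYOF, CCDC80 and AXL lie near the bottom in YAP/TAZ dKO, FOXF2 is highest there, and NUAK2 in YAP/TAZ dKO lies with WT.

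MYOF encodes myoferlin, a ferlin that takes part in membrane repair and fusion (ENSG00000138119.16, hg19 chromosome 10, 95066186 to 95242074). In WT its level was 1.27, 1.12 and 1.54 FPKM on 1 kPa and 1.70, 2.73 and 1.62 on 40 kPa. In RAP2 tKO it was 2.25, 2.18 and 2.31 on the soft gel and 2.89, 2.85 and 3.75 on the stiff one. In LATS dKO it was 6.02, 5.61 and 5.89 FPKM on 1 kPa and 4.67, 4.04 and 4.11 on 40 kPa, so that every LATS dKO library exceeded every WT and RAP2 tKO library. The YAP/TAZ dKO libraries held 0.148, 0.225 and 0.0726 FPKM on 1 kPa and 0.155, 0.210 and 0.161 on 40 kPa, all below WT. The 4 genotypes were thus arranged with only WT and RAP2 tKO overlapping. MYOF rose in LATS dKO by 1.20 ± 0.0807 on the log2 scale of FPKM + 1 (limma estimate ± SE, adjusted p = 1.32e-09) and in RAP2 tKO by 0.49 ± 0.0807 (limma adjusted p = 0.000348). In YAP/TAZ dKO it fell by 1.17 ± 0.0807 (limma adjusted p = 6.99e-10). With a pseudocount of 0.1 in place of 1 that fall was -2.73, since the level there is far below 1. As a ratio of mean FPKM, LATS dKO stood 3.04 times above WT, and WT 10.3 times above YAP/TAZ dKO. The deposited interval of MYOF reached 0 in 6 libraries, those of YAP/TAZ dKO, so that the second ratio is imprecise.

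CRIM1 encodes a transmembrane protein that binds bone morphogenetic proteins (ENSG00000150938.9, chromosome 2, 36583069 to 36778278). It measured 14.9, 10.8 and 10.9 FPKM in WT on 1 kPa and 15.2, 19.5 and 16.3 on 40 kPa. RAP2 tKO held 15.3, 20.9 and 16.0 on the soft gel and 28.2, 28.6 and 20.5 on the stiff gel. LATS dKO held 27.9, 40.1 and 28.4 on 1 kPa and 21.9, 41.3 and 39.5 on 40 kPa. All 6 LATS dKO libraries exceeded all 6 of WT, whereas RAP2 tKO overlapped with both. The lowest of the LATS dKO libraries was replicate 1 on 40 kPa, which also deviated with GC content. YAP/TAZ dKO held 13.1, 13.0 and 9.34 FPKM on 1 kPa and 8.39, 11.0 and 7.61 on 40 kPa. On 1 kPa it overlapped with WT (means 11.8 and 12.2 FPKM). On 40 kPa all its libraries lay below those of WT (means 8.99 and 17.0 FPKM). The stiffness response of CRIM1 in this line was not called different from that of WT, as given below. CRIM1 rose in LATS dKO (1.12 ± 0.158, limma adjusted p = 1.91e-05). It also rose in RAP2 tKO (0.52 ± 0.158, limma adjusted p = 0.0294) and fell in YAP/TAZ dKO (-0.45 ± 0.158, limma adjusted p = 0.0241), both calls being close to the threshold. The RAP2 tKO call was lost without a filter and without any 1 of 7 libraries (WT on 1 kPa replicates 2 and 3, WT on 40 kPa replicates 1 and 3, RAP2 tKO on 1 kPa replicate 2, RAP2 tKO on 40 kPa replicates 1 and 2), at adjusted p between 0.0602 and 0.0810. The YAP/TAZ dKO call was lost without a filter and without any 1 of WT on 1 kPa replicate 1, WT on 40 kPa replicate 2 and replicate 3 of either YAP/TAZ dKO group, at adjusted p between 0.0509 and 0.0703.

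FJX1 is the human relative of Drosophila four-jointed, a Golgi kinase that acts on the cadherins Fat and Dachsous upstream of Hippo signalling (ENSG00000179431.6, chromosome 11, 35639967 to 35642416). WT held 28.2, 23.4 and 26.9 FPKM on 1 kPa and 24.5, 29.5 and 28.4 on 40 kPa, and LATS dKO 34.8, 35.3 and 33.0 and 31.8, 35.7 and 34.0. YAP/TAZ dKO held 15.6, 15.7 and 17.1 on the soft gel and 14.7, 14.5 and 15.3 on the stiff gel. These 3 genotypes did not overlap, while RAP2 tKO, between 28.3 and 33.1 FPKM, overlapped with WT and LATS dKO over both gels. On 1 kPa alone every RAP2 tKO library exceeded every WT library, and on 40 kPa these genotypes overlapped. FJX1 fell in YAP/TAZ dKO (-0.75 ± 0.0524, limma adjusted p = 8.82e-10) and rose in LATS dKO (0.34 ± 0.0524, limma adjusted p = 5.2e-05). The rise in RAP2 tKO (0.22 ± 0.0524, limma adjusted p = 0.00675) was 0.27 after correction for GC content, a larger change with a limma adjusted p of 0.067. The FJX1 transcript has 63.8% GC (percentile 95.1 of the genes tested). The levels of FJX1 spanned a narrower range than those of MYOF: WT stood 1.73 times above YAP/TAZ dKO, and LATS dKO 1.27 times above WT.

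CCDC80 encodes a secreted protein of the extracellular matrix (ENSG00000091986.15, chromosome 3, 112315641 to 112368377). In WT it was at 4.89, 5.58 and 6.37 FPKM on 1 kPa and 5.11, 5.44 and 5.52 on 40 kPa. In LATS dKO the values were 8.46, 8.64 and 7.64 on the soft gel and 10.7, 8.01 and 7.85 on the stiff gel, all above WT. In YAP/TAZ dKO they were 1.14, 0.739 and 0.695 and 0.603, 1.10 and 1.14, all below WT. CCDC80 rose in LATS dKO (0.55 ± 0.111, limma adjusted p = 0.00072) and fell in YAP/TAZ dKO (-1.78 ± 0.111, limma adjusted p = 1.97e-10). RAP2 tKO, at 4.43, 4.67 and 5.22 on 1 kPa and 5.87, 5.44 and 9.24 on 40 kPa, was not called (0.04, 95% interval -0.19 to 0.27, limma adjusted p = 0.86). Its high value of 9.24 FPKM came from replicate 3, which deviated with GC content.

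Genes near CCDC80 were lower in YAP/TAZ dKO as well. The 31 tested genes within 5 Mb on either side had a median log2 change of -0.715 there (quartiles -1.05 and -0.444), against -0.107 in LATS dKO and -0.006 in RAP2 tKO. CCDC80 fell by 1.78 in the same contrast, below that lower quartile. FJX1 was the other gene with a lower neighbourhood, the median of 36 genes being -0.224 (quartiles -0.447 and -0.073) where FJX1 itself fell by 0.75. The windows of the other 6 tested genes had medians between -0.077 and 0.119 in YAP/TAZ dKO. Across all 8 windows the median lay between -0.178 and 0.104 in LATS dKO and between -0.042 and 0.049 in RAP2 tKO. The part of the neighbourhood in the change of CCDC80 and FJX1 was not tested.

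**Figure D2:**
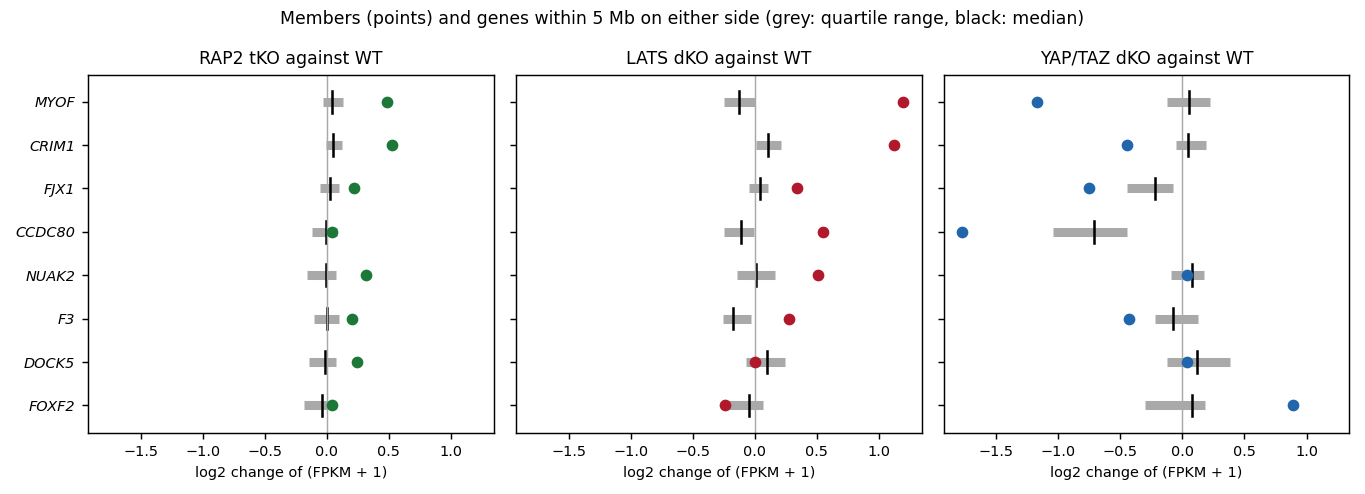
Log2 change of FPKM + 1 against WT (horizontal axis) for the 8 tested genes (points) and for the genes within 5 Mb on either side (grey bar from the first to the third quartile, black line at the median), in the 3 knockout lines. The neighbours of CCDC80 in YAP/TAZ dKO have a median of -0.715, and the remaining medians lie closer to 0.

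AXL, a receptor tyrosine kinase for the ligand GAS6 (ENSG00000167601.11, chromosome 19, 41725108 to 41767671), was higher in LATS dKO and lower in YAP/TAZ dKO, at levels mostly below 1 FPKM. WT held 0.415, 0.367 and 0.249 FPKM on 1 kPa and 0.607, 0.418 and 0.350 on 40 kPa. In LATS dKO the levels were 0.624, 1.22 and 0.688 on the soft gel and 0.498, 0.720 and 0.749 on the stiff gel. Those on the stiff gel overlapped with WT on that gel, while those on the soft gel lay above every WT library. In YAP/TAZ dKO they were 0.0235, 0.0466 and 0.0954 and 0.0630, 0.0430 and 0.0503, far below every WT library. The RAP2 tKO libraries, between 0.322 and 0.479 FPKM, lay within the range of WT. Since AXL failed the filter, mean FPKM was compared by an exact permutation test within each stiffness, two-sided, whose smallest possible p is 0.005. Means over the 6 libraries of a genotype were 0.401 FPKM in WT, 0.750 in LATS dKO, 0.0536 in YAP/TAZ dKO and 0.390 in RAP2 tKO. The exact p was 0.01 for LATS dKO, 0.005 for YAP/TAZ dKO and 0.835 for RAP2 tKO, which became 0.03, 0.03 and 0.835 when adjusted over 6 such tests. The median deposited interval of AXL was the value ± 56.3%, and it reached 0 in 6 libraries.

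NUAK2, a kinase related to AMPK (ENSG00000163545.8, chromosome 1, 205271187 to 205290919), was near or below 1 FPKM throughout. It reached 1 FPKM in 5 LATS dKO libraries and in no other, so that it passed the filter only through the group where it is high, and the test of that group is not independent of the filter. Its WT levels were 0.309, 0.476 and 0.308 FPKM on 1 kPa and 0.600, 0.562 and 0.490 on 40 kPa. LATS dKO held 1.10, 1.17 and 1.12 on the soft gel and 0.869, 1.08 and 1.11 on the stiff gel. RAP2 tKO held 0.902, 0.622 and 1.00 on 1 kPa and 0.901, 0.805 and 0.618 on 40 kPa. Every library of these 2 knockout lines exceeded every WT library. YAP/TAZ dKO, at 0.436, 0.468 and 0.676 on 1 kPa and 0.513, 0.404 and 0.483 on 40 kPa, overlapped with WT and was not called (0.04, 95% interval -0.10 to 0.18, limma adjusted p = 0.65). The change was 0.51 ± 0.0681 in LATS dKO (limma adjusted p = 9.62e-06) and 0.31 ± 0.0681 in RAP2 tKO (limma adjusted p = 0.00379). Without a filter, where every gene with a value above 0 was tested, the limma adjusted p was 9.06e-06 and 0.0043. With a pseudocount of 0.1 these changes were 1.10 and 0.72, and as ratios of mean FPKM they were 2.35 and 1.77.

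F3 encodes tissue factor, the cell surface protein that starts blood coagulation (ENSG00000117525.13, chromosome 1, 94994781 to 95007356). It was lower in YAP/TAZ dKO, at 1.11, 1.49 and 1.41 FPKM on 1 kPa and 0.775, 0.717 and 0.679 on 40 kPa. WT held 2.70, 1.65 and 2.15 on the soft gel and 1.98, 1.10 and 1.02 on the stiff gel. The 40 kPa libraries of YAP/TAZ dKO lay below all WT libraries. Those on 1 kPa lay below every WT library on that gel and overlapped only with WT on 40 kPa. The fall was called (-0.43 ± 0.114, limma adjusted p = 0.00402), and it was -0.71 with a pseudocount of 0.1. LATS dKO lay between 1.75 and 2.77 FPKM and RAP2 tKO between 1.27 and 2.39, neither called (0.27, 95% interval 0.03 to 0.51, limma adjusted p = 0.0734, and 0.20, interval -0.04 to 0.44, adjusted p = 0.256). F3 was called higher in LATS dKO without WT on 1 kPa replicate 1 (adjusted p = 0.0389), without WT on 40 kPa replicate 1 (adjusted p = 0.0155) and without LATS dKO on 40 kPa replicate 2 (adjusted p = 0.0377).

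DOCK5, an exchange factor that activates the GTPase RAC (ENSG00000147459.17, chromosome 8, 25042238 to 25275598), had overlapping ranges in all 4 genotypes. WT measured 5.05, 6.02 and 5.52 FPKM on 1 kPa and 5.29, 5.83 and 5.37 on 40 kPa. LATS dKO spread from 4.37 to 6.65 and YAP/TAZ dKO from 4.56 to 6.80, both around the WT values. On 40 kPa every YAP/TAZ dKO library (5.87, 6.80 and 6.79 FPKM) exceeded every WT library. On 1 kPa its mean was below that of WT (4.97 and 5.53 FPKM), with overlap. The stiffness response of DOCK5 was not called different from that of WT. Averaged over both gels, the log2 change was 0.00 in LATS dKO (95% interval -0.16 to 0.17, limma adjusted p = 0.982) and 0.04 in YAP/TAZ dKO (-0.13 to 0.20, adjusted p = 0.73). RAP2 tKO held 6.54, 5.53 and 7.11 on the soft gel and 7.56, 7.19 and 6.54 on the stiff gel, where every library exceeded every WT library. It was called higher (0.25 ± 0.0790, limma adjusted p = 0.0403). This call was lost without a filter and without any 1 of 8 libraries (replicates 1 and 3 of both WT groups and of RAP2 tKO on 1 kPa, and replicates 1 and 2 of RAP2 tKO on 40 kPa), at adjusted p between 0.0659 and 0.107.

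FOXF2, a forkhead transcription factor of mesenchymal tissues (ENSG00000137273.3, chromosome 6, 1390069 to 1395832), moved against the pathway. It stood at 10.6, 11.1 and 10.6 FPKM in WT on 1 kPa and 10.9, 9.87 and 9.59 on 40 kPa. YAP/TAZ dKO held 20.6, 20.5 and 20.5 on the soft gel and 19.2, 19.3 and 21.0 on the stiff gel, above every library of the other genotypes. LATS dKO held 9.77, 8.64 and 9.55 on 1 kPa and 7.58, 8.83 and 7.92 on 40 kPa. On the same gel every LATS dKO library lay below every WT library, and only those on 1 kPa overlapped with WT on 40 kPa. FOXF2 rose in YAP/TAZ dKO (0.89 ± 0.0456, limma adjusted p = 1.25e-11) and fell in LATS dKO (-0.24 ± 0.0456, limma adjusted p = 0.000454). The second of these changes was -0.12 after GC correction (adjusted p = 0.368), the transcript having 63.6% GC (percentile 94.6). RAP2 tKO, between 9.38 and 12.6 FPKM, was not called (0.04, 95% interval -0.06 to 0.13, limma adjusted p = 0.635). The 32 tested genes within 5 Mb of FOXF2 had a median change of 0.074 in YAP/TAZ dKO.

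NT5E, the cell surface enzyme CD73 that makes adenosine from AMP (ENSG00000135318.11, chromosome 6, 86159302 to 86205509), was barely detected in this line. Its levels ran from 0.00887 to 0.251 FPKM over the 24 libraries, and the deposited interval reached 0 in all 24. Group means lay between 0.0414 FPKM (YAP/TAZ dKO on 1 kPa) and 0.143 (WT on 1 kPa), with the ranges of neighbouring groups overlapping throughout. The exact permutation test within stiffness gave p = 0.14 for LATS dKO and 0.185 for either of the other lines (0.222 each when adjusted over 6 tests), so that a difference was not detectable at this level.

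**Figure D3:**
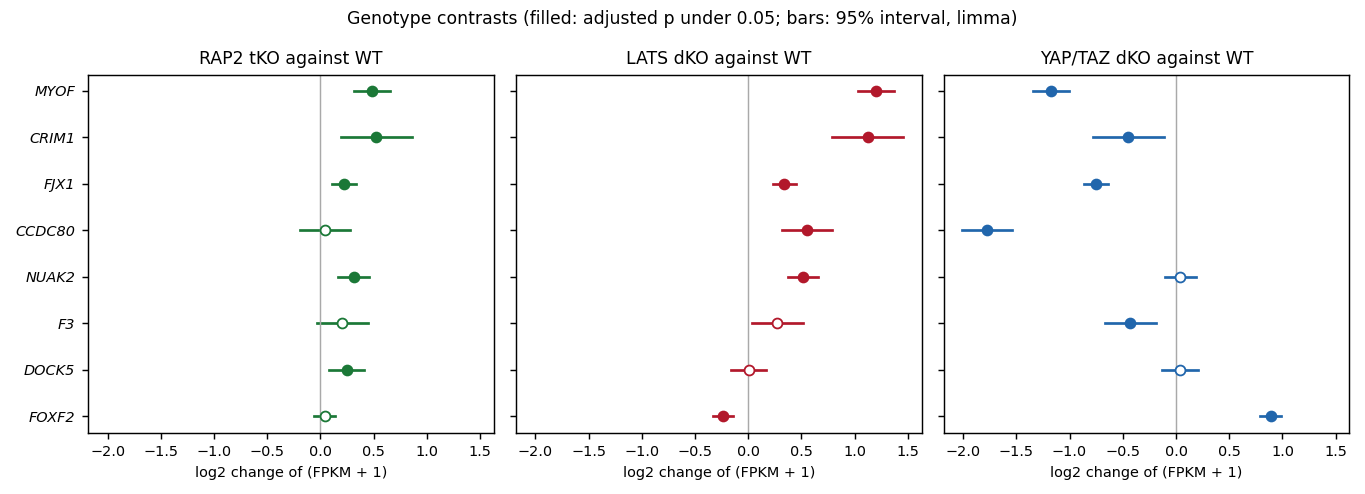
Log2 change of FPKM + 1 against WT as the mean over both gels (horizontal axis) for the 8 tested genes in the 3 knockout lines, with bars for the 95% interval and filled points for an adjusted p under 0.05 (limma). MYOF, CRIM1 and FJX1 are filled on the pathway side in all 3 panels, and FOXF2 is filled on the opposite side in LATS dKO and YAP/TAZ dKO.

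The sequence before the transcription start of the genes was searched for the core of the TEAD site, GGAATG, and for the AP-1 site TGANTCA, on both strands, since YAP and TAZ reach DNA through TEAD and often beside AP-1. RefSeq promoters (build GRCh38.p14) were matched by symbol for 8 of the 10 genes, with 9 starts, AXL having 2. Across the 35116 starts that RefSeq lists 11.9% hold the TEAD core in the 250 bases before the start and 6.57% the AP-1 site. The core was found for AXL, NUAK2 and FOXF2 and the AP-1 site for F3. The 4 windows that hold a match are shown 5′ to 3′ on the strand of the gene, with each match in capitals and the start following the last base:
NUAK2 (chr1:205321746-205321995, minus strand): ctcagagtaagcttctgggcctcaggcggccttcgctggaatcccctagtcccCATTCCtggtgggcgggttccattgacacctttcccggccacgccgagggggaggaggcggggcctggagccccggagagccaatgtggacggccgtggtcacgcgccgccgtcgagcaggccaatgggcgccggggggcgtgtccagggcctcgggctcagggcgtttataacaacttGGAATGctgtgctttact
FOXF2 (chr6:1389326-1389575, plus strand): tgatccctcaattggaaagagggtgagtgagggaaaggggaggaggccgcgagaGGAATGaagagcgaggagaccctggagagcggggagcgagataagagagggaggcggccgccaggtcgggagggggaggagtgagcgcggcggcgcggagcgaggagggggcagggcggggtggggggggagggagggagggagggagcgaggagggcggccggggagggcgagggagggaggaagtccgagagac
AXL, second start (chr19:41226505-41226754, plus strand): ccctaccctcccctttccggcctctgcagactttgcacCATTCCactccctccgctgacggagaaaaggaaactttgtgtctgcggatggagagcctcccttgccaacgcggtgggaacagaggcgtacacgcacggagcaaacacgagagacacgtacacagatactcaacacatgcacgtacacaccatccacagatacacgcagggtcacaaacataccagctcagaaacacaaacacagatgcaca
F3 (chr1:94541760-94542009, minus strand): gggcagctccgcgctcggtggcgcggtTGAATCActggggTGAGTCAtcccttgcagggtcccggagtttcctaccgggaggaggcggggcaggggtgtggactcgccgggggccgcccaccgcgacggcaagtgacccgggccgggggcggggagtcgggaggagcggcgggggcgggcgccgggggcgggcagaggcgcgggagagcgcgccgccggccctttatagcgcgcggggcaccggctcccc
In NUAK2 the core began 197 bases before the start on the opposite strand and 18 bases before it on the strand of the gene. In FOXF2 it began 196 and in AXL 212 bases before the start. F3 held 2 AP-1 sites, 223 and 210 bases before the start. The windows of MYOF, FJX1 and CCDC80, which fell in YAP/TAZ dKO, held neither motif. A match here describes letters in this window and no binding.

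Stiffness gave few calls. Of the 8 tested, 0 were called in WT (2 at an unadjusted p under 0.05, limma), where 0.986% of all genes were. MYOF had the smallest p, going from 1.31 ± 0.211 to 2.02 ± 0.614 FPKM (mean ± SD, n = 3, as below; log2 change 0.37, 95% interval 0.13 to 0.61, limma adjusted p = 0.141). MYOF was called after GC correction (adjusted p = 0.0319) and without both GC-deviating libraries (adjusted p = 0.0467), neither of which is a WT library. The other was F3, at 2.16 ± 0.525 and 1.37 ± 0.531 FPKM (-0.43, interval -0.77 to -0.09, limma adjusted p = 0.249), in the direction opposite to MYOF. CRIM1, at 12.2 ± 2.33 and 17.0 ± 2.24 FPKM, had its soft and stiff libraries without overlap but was not called (0.45, interval -0.02 to 0.92, limma adjusted p = 0.441). NUAK2 stood likewise at 0.364 ± 0.0965 and 0.550 ± 0.0561 FPKM (0.19, interval -0.02 to 0.39, limma adjusted p = 0.466). For FJX1, CCDC80, DOCK5 and FOXF2 the change lay between -0.08 and 0.07.

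**Figure D4:**
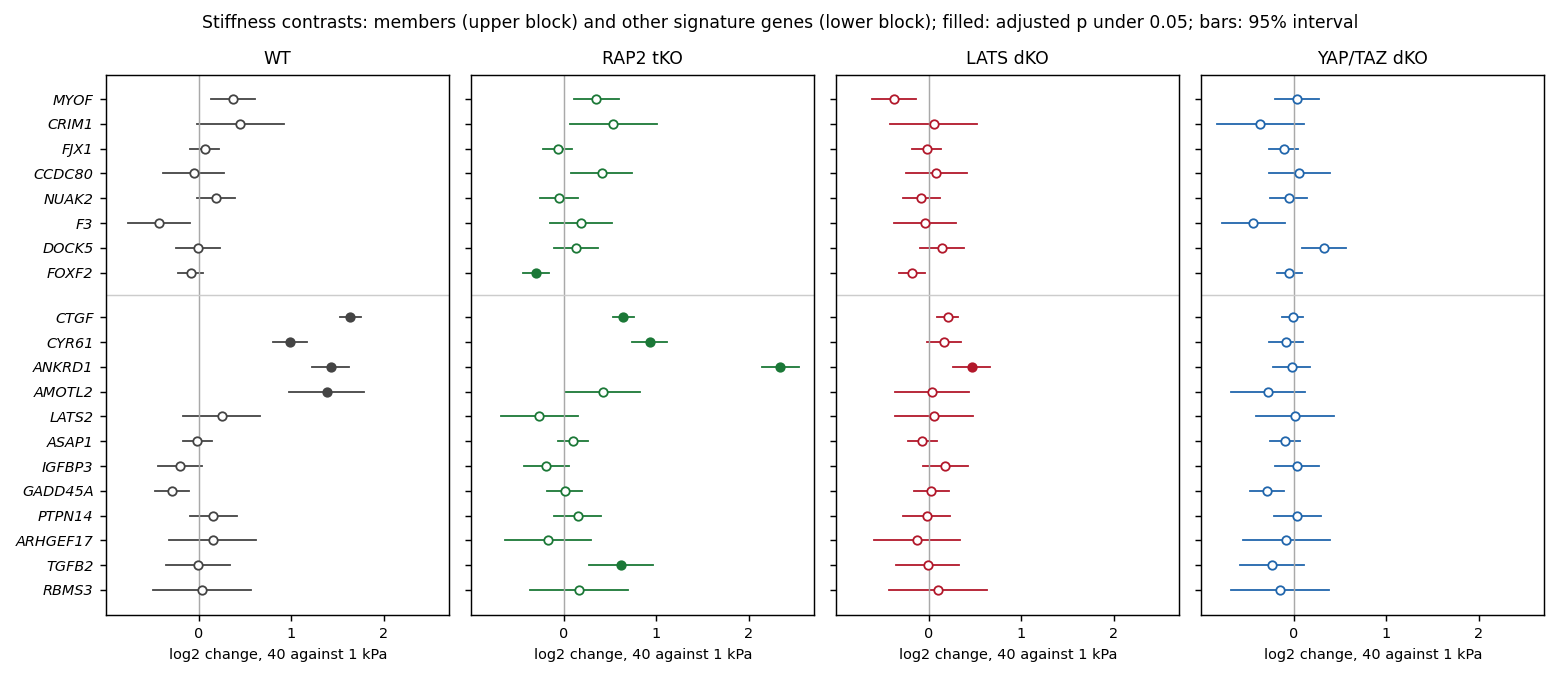
Log2 change of FPKM + 1 on 40 against 1 kPa (horizontal axis) in each genotype, for the 8 tested genes of this group (upper block) and the other 12 genes of the signature (lower block), with bars for the 95% interval and filled points for an adjusted p under 0.05 (limma). In WT 0 of 8 points in the upper block and 4 of 12 in the lower block are filled.

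In RAP2 tKO cells 1 of the 8 was called for stiffness (4 at an unadjusted p under 0.05, limma), where 3.87% of all genes were. The called gene was FOXF2, which fell from 12.5, 11.0 and 12.6 FPKM to 9.40, 9.98 and 9.38 (log2 change -0.30 ± 0.0645, limma adjusted p = 0.0146), the 2 gels being without overlap. After GC correction it stood at 0.04 (adjusted p = 0.906), and the call was also lost when only the 6 RAP2 tKO libraries were fitted and without RAP2 tKO on 1 kPa replicate 1 or replicate 3. MYOF, with 2.25 ± 0.0652 and 3.17 ± 0.508 FPKM, had no overlap between gels but was not called (0.35, interval 0.11 to 0.59, limma adjusted p = 0.0878), except after GC correction (adjusted p = 0.0397). The others were CRIM1 (0.54, interval 0.07 to 1.01, limma adjusted p = 0.174), whose gels overlapped, and CCDC80 (0.41, interval 0.08 to 0.74, limma adjusted p = 0.14), whose gels did not. In LATS dKO 0 were called (2 at an unadjusted p under 0.05, limma) against 0.708% of all genes. MYOF there went from 5.84 ± 0.208 to 4.28 ± 0.345 FPKM (-0.38, interval -0.62 to -0.14, limma adjusted p = 0.145), opposite in sign to WT. In YAP/TAZ dKO 0 were called (2 at an unadjusted p under 0.05, F3 at -0.44 and DOCK5 at 0.33, limma) against 0.347%.

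The difference of the stiffness response between a knockout line and WT was tested as an interaction, and 0 of the 8 were called in any of the 3 (limma), where 0.0505% of all genes were for RAP2 tKO, 0.0632% for LATS dKO and 0.392% for YAP/TAZ dKO. At an unadjusted p under 0.05 there were 2, 1 and 1 genes. The closest was MYOF in LATS dKO, whose response minus that of WT was -0.75 on the log2 scale (95% interval -1.09 to -0.41, limma adjusted p = 0.0915). That difference was called after GC correction (-0.75, adjusted p = 0.0306) and without both GC-deviating libraries (-0.80, adjusted p = 0.024). CRIM1 in YAP/TAZ dKO had a difference of -0.81 (interval -1.47 to -0.14, limma adjusted p = 0.421).

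The 10 genes belong to a signature of 22 YAP and TAZ targets, whose other 12 genes were all tested. Of these 12, 4 were called higher on the stiff gel in WT (CTGF, CYR61, ANKRD1 and AMOTL2), where 51 of all 15828 genes were. In LATS dKO 10 were higher (16.0% of all genes), and in RAP2 tKO 9 were (7.40%). In YAP/TAZ dKO 8 were lower (27.0%) and 2 higher (23.6%), the last pair being ASAP1 and GADD45A. LATS2, among the 12, is itself a targeted gene of the LATS dKO line. The median log2 change of the 12 was 0.772 in LATS dKO, -0.60 in YAP/TAZ dKO and 0.442 in RAP2 tKO. In the direction of the pathway in all 3 genotype contrasts were 6 of these 12 and 3 of the 8, beside the 1.47% of all genes. Among the 8, only MYOF kept all 3 such calls under every alternative run. CTGF, whose product is a secreted matricellular protein, went furthest in YAP/TAZ dKO (-3.44, limma adjusted p = 2.5e-21), and ANKRD1, a muscle ankyrin repeat protein, in LATS dKO (3.85, limma adjusted p = 6.06e-18). No difference between the 2 sets was tested.

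The TEAD factors themselves differed between the lines. TEAD1 fell in YAP/TAZ dKO (-0.72, limma adjusted p = 3.14e-10), and rose in LATS dKO (0.77, limma adjusted p = 2.8e-10) and RAP2 tKO (0.27, limma adjusted p = 0.000472). TEAD4 rose in LATS dKO (0.54, limma adjusted p = 1.36e-05) and fell in YAP/TAZ dKO (-0.23, limma adjusted p = 0.0158). TEAD2 went the other way from TEAD1 and TEAD4, falling in LATS dKO (-0.34, limma adjusted p = 0.0001) and rising in YAP/TAZ dKO (0.17, limma adjusted p = 0.0132). TEAD3 rose in both LATS dKO (0.33, limma adjusted p = 0.0212) and YAP/TAZ dKO (0.45, limma adjusted p = 0.0016) and was not called in RAP2 tKO (0.15, limma adjusted p = 0.401).

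The genes most like each tested gene were those with the highest Pearson correlation of log2(FPKM + 1) over the 24 libraries, given as a description, since libraries of a group share their genotype. For MYOF these were PELO (0.98), TXNRD1 (0.978) and GPRC5A (0.978), the last a receptor that ranged from 0.489 FPKM in its lowest group to 33.7 in LATS dKO on 40 kPa. CRIM1 came closest to WTIP (0.925), CNN2 (0.92) and AJUBA (0.916), of which WTIP and AJUBA are LIM proteins that bind LATS kinases. FJX1 was closest to SOCS3 (0.979), HSPB8 (0.976) and KRT8 (0.972), CCDC80 to FBXO34 (0.989), DNAJC2 (0.986) and VKORC1L1 (0.986), and NUAK2 to KIRREL (0.913), PVRL2 (0.911) and BMP4 (0.893). All 15 of these genes had their highest group mean in LATS dKO. FOXF2 was closest to RTN4RL1 (0.982), TMEM74B (0.981) and RHBDL3 (0.981), all highest in YAP/TAZ dKO on 1 kPa. F3 and DOCK5 had no gene as close, with 0.813 for GLE1 and 0.645 for RRM2 as their highest values.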

How the data were processed

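RNA libraries were made with a stranded mRNA kit, per the labels' protocols, which name 2 index sets without saying which library used which. The authors deposited gene FPKM values with 95% intervals, and the submitters' processing notes name STAR 2.4.2a, Cufflinks 2.2.1 and build hg19. The sources used here name no annotation release, strand setting or treatment of reads with several matches. FPKM keeps no read counts, so no count test was run, and depth was estimated from the interval widths of genes with 1 transcript. Entries sharing a symbol were summed (338 symbols), and 92 symbols with a failed status were left out. The 15828 genes with 3 or more libraries at 1 FPKM or higher were fitted as log2(FPKM + 1) with limma 3.58.1 in R 4.3.3, with 1 mean per group over 24 libraries and 16 residual degrees of freedom. The 10 contrasts (3 of genotype, 4 of stiffness, 3 interactions) were adjusted by Benjamini-Hochberg each over all genes tested, and a call is an adjusted p under 0.05. A fold on this scale understates the change of genes near or below 1 FPKM. P-values measure the spread between replicate cultures of these lines.

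All 10 genes are named, with at most 4 of the other 12 signature genes given with values, the targeted genes, TEAD1 to TEAD4 and the 3 most alike genes of each. The members and lists were chosen with earlier results of these data known. The exact permutation tests of AXL and NT5E and the neighbour windows were added after the data had been seen. Alternatives were a pseudocount of 0.1, no filter, median-ratio scaling, the highest entry per symbol, GC correction, a replicate block, a fit of only the groups compared, leaving out both GC-deviating libraries and leaving out each library. The limma step was tested on simulated data. Python 3.11.15, pandas 2.3.3 and numpy 2.4.6 were used.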

Additional observations from a re-analysis of the deposited data

How the results depend on the processing

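Of 18 calls of a gene in a contrast, 12 held under every alternative run, and 58 results were called neither as reported nor under any alternative. The number called for stiffness in WT went from 0 to 1 (MYOF) after GC correction and without both GC-deviating libraries, and so did the number for the response of LATS dKO minus that of WT (MYOF). For stiffness in RAP2 tKO it went from 1 to 0 when only the groups compared were fitted, and FOXF2 turned to 0.0399 after GC correction. In RAP2 tKO against WT 5 became 3 without a filter, which adds genes to the adjustment. Leaving out 1 library gave 0 to 1 called for stiffness in RAP2 tKO, 3 to 5 in RAP2 tKO against WT, 6 to 7 in LATS dKO, 5 to 6 in YAP/TAZ dKO, and 0 in the other 6 contrasts. The causes of these changes were not tested. The labels do not say whether a replicate number marks a shared batch. Of 12 same-numbered pairs of a soft and a stiff library of 1 genotype, 0 had a correlation of deviations over 0.1 (range -0.068 to 0.084). Libraries of different genotypes were not compared in this way. With the replicate block the counts were as reported. They were 1 for stiffness in RAP2 tKO, 0 in the other 3 lines and 0 for each interaction. Against WT they were 5 for RAP2 tKO, 6 for LATS dKO and 6 for YAP/TAZ dKO. Low levels limit NT5E and AXL, whose median deposited intervals were ± 253% and ± 56.3% of the value. They also limit MYOF in YAP/TAZ dKO, where its deposited interval reached 0 in all 6 libraries.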
